A study of Rattus norvegicus with 21 samples.

Results

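Kupffer cells are the resident macrophages of the liver, and 10 genes commonly used to mark them or macrophages in general were followed through 21 rat liver RNA-seq libraries: Cd68, Marco, Clec4f, Vsig4, Cd163, Adgre1, Csf1r, Timd4, Cd5l and C1qa. Members were taken where the gene name in both deposited tables equalled the listed symbol. This found 9 of the 10, each as a single entry among 32623 genes in each table, and Timd4 was not analysed here. The study compared livers of early weaned and control rats, 3 libraries in each of 7 groups. Wistar rats were sampled at d23 and d63 after birth as controls or early weaned animals, and Sprague Dawley rats at d211 as controls, early weaned animals or early weaned animals given 1.5% leucine in their drinking water. Nothing in the labels ties each library to an animal of its own, so the p-values speak only of the spread between these libraries. All d211 livers were Sprague Dawley and were deposited in a table of their own, so strain, that age and table cannot be told apart and Wistar livers were not tested against them.

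Kupffer cells line the sinusoids, take up particles, microbes, aged red cells and hemoglobin from portal blood, and depend on signalling through the CSF1 receptor. Part of their identity lies in scavenger and pattern receptors and in lectins that bind sugars on blood-borne material, and complement C1q, which tags targets for uptake, is made largely by macrophages. Whole liver is mostly hepatocyte RNA, so a lower level of such a marker can stand for fewer macrophages or for less of its RNA per macrophage, and these 2 cannot be told apart in bulk tissue.

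The upstream sequences of the markers are shown first, and any link between them and the markers' levels was not tested. All 10 symbols had an entry among the RefSeq promoters of build GRCr8, windows of 300 bases from 250 before the start of the gene to 50 after it. The core of the motif of PU.1, the factor encoded by Spi1 that specifies macrophages, was searched as GAGGAA on one strand and read as TTCCTC on the other, with no allowance for overlap. It was present in the windows of 5 of 10 members (Adgre1, Cd5l, Cd68, Csf1r and Marco), against 27.6% of 33469 promoters. The half-site of MAF factors, TGCTGA with TCAGCA on the other strand, was present in 6 of 10, against 18.4%. The E-box CACGTG was in 0 of 10, against 6.42%. The TATA box TATAAA with its reverse TTTATA was in 1 of 10, that of Marco, against 14.2%. Such a match is only a run of letters, and its absence says only that these letters are not in the window. Printed are the 250 bases before the start, read 5′ to 3′ on the strand of the gene. They are given for the most general marker (Cd68, chr10:54882442-54882691, minus strand), the most variable one (Marco, chr13:34201256-34201505, minus strand) and a secreted marker (Cd5l, chr2:175088665-175088914, plus strand). The last is the one member that passed the main edgeR test between ages (Cd163, chr4:158770524-158770773, plus strand). Capitals mark the PU.1 core, which is absent from the Cd163 stretch. Cd68 has a further match in the 50 bases after its start. The RefSeq entry of Marco lies on chromosome 13 and the measured one on chromosome 16. Whether they are the same gene was not tested.
Cd68: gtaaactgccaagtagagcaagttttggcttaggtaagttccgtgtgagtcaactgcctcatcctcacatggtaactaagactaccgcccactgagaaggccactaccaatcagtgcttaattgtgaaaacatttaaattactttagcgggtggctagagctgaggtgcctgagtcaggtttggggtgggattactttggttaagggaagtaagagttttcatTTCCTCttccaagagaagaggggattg
Marco: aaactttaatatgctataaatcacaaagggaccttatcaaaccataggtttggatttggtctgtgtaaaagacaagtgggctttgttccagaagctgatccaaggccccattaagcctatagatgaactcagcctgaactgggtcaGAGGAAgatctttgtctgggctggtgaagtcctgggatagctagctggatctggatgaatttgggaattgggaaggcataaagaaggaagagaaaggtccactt
Cd5l: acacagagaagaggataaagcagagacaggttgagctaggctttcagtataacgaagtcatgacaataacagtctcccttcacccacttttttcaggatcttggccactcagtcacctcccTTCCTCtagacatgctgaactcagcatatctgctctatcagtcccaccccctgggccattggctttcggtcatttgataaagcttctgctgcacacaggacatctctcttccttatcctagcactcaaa
Cd163: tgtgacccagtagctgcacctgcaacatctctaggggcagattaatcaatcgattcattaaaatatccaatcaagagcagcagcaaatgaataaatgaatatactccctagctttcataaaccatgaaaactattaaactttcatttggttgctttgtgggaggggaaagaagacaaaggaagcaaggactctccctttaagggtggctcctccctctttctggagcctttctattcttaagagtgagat

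Levels are given as FPKM, fragments scaled to the length of the gene and the depth of the library, as the authors deposited them, so they can be set against each other between genes. The secreted members stood high. C1qa, a chain of complement C1q (5:155261250-155264143, minus strand, coordinates as the tables give them for a rat build they do not name), ran from 68.4 to 147 FPKM over the 12 Wistar libraries and from 35.4 to 102 over the 9 Sprague Dawley libraries. Cd5l, a secreted scavenger receptor cysteine-rich protein of macrophages (2:186685104-186696117, plus strand), ran from 37.7 to 138 FPKM in Wistar and from 14.2 to 66.1 in Sprague Dawley livers. Clec4f, a Kupffer cell lectin that binds galactose and N-acetylgalactosamine (4:115322291-115332052, minus strand), ran from 70.3 to 142 and from 23.1 to 75.4 FPKM. C1qa and Clec4f were the top 2 by mean in all 7 groups, and their values overlapped in each of the 4 Wistar groups.

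Among the surface receptors, Marco, a scavenger receptor for bacteria and particles (16:85115201-85135859, minus strand), had the widest range, from 1.93 to 101 FPKM, which is 52.2-fold. RefSeq places a gene of that symbol on chromosome 13, whereas the other 8 members share their chromosome between the tables and RefSeq. Vsig4, a complement receptor that clears opsonised particles (X:65370851-65400298, minus strand), ran from 6.24 to 35.8 FPKM. Csf1r, the receptor for the survival factors CSF1 and IL34 (18:56414488-56457869, plus strand), ran from 3.46 to 24.9 FPKM. Cd163, the scavenger receptor for complexes of haptoglobin with hemoglobin (4:156752082-156785467, plus strand), ran from 1.48 to 18.2 FPKM. Adgre1, which encodes the F4/80 antigen (9:9431860-9585865, minus strand), was the lowest member by mean in every group, at 1.55 to 10.5 FPKM. Cd68, a lysosomal glycoprotein of phagocytes (10:56268720-56270640, minus strand), lay between 7.33 and 40.4 FPKM. The lowest count of any member in any library was 165 units, about 4 units to a fragment, so all 9 were measured well above 0.

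**Figure D1:**
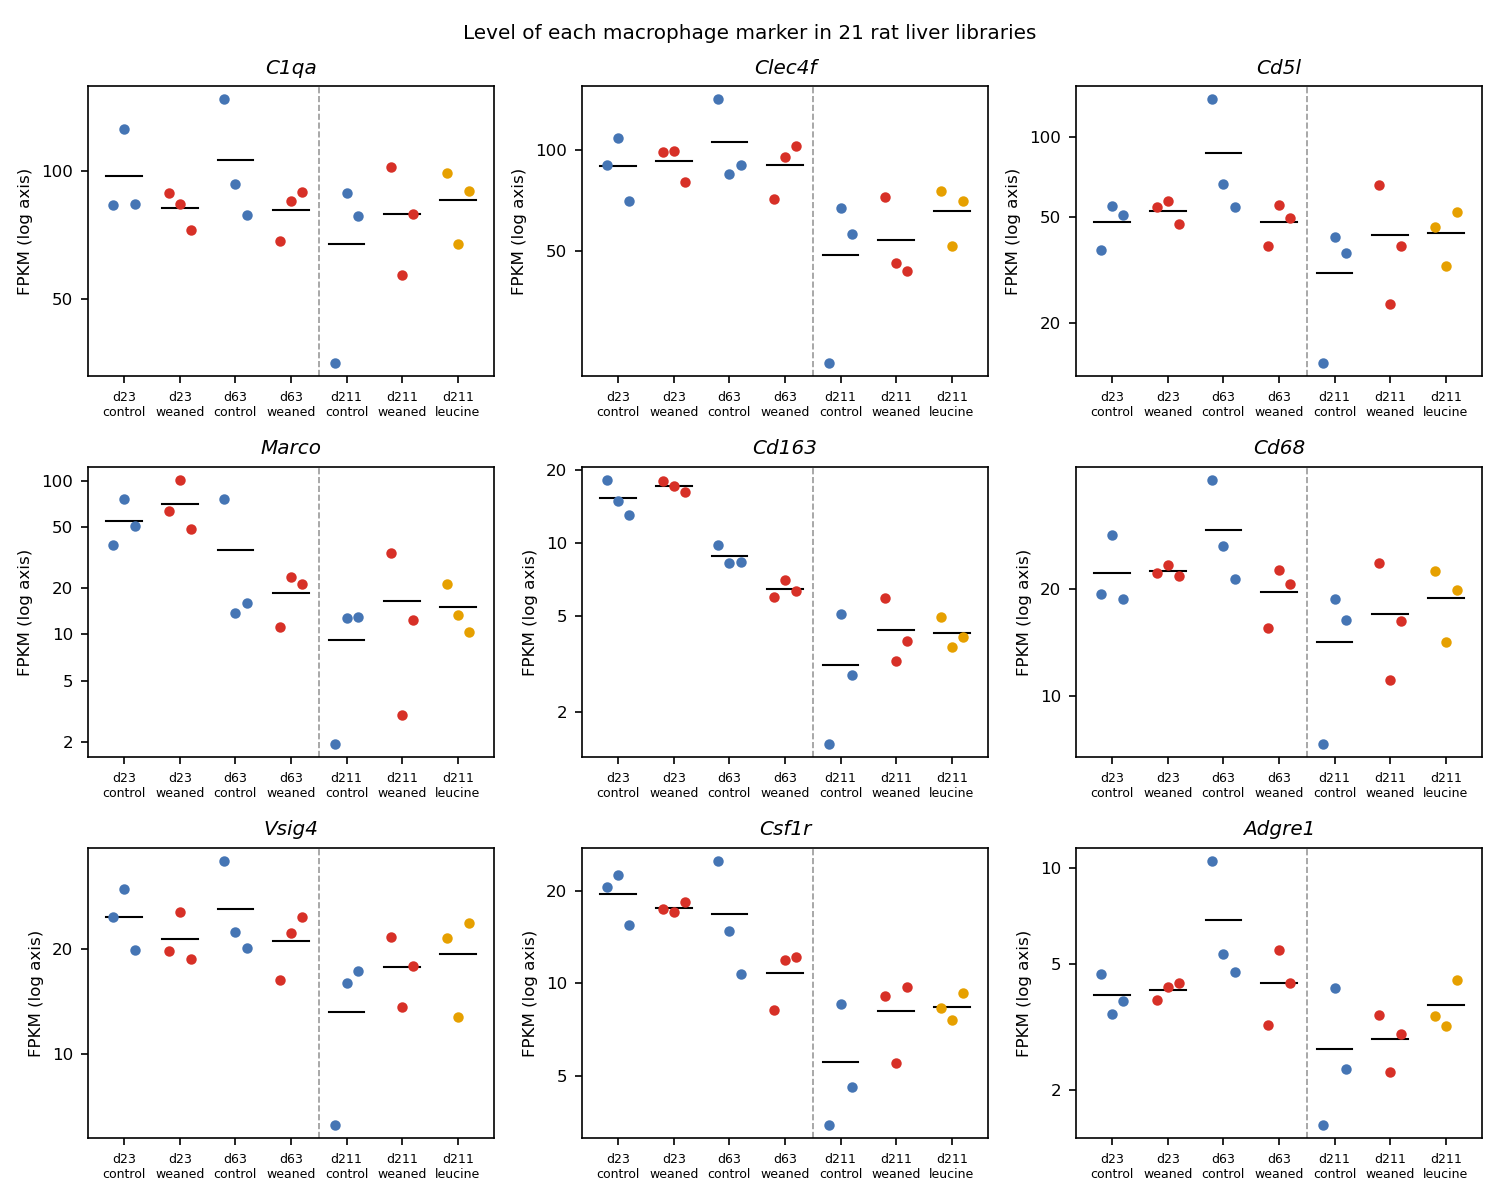
Level of each of the 9 markers in FPKM on a log axis, with points for single libraries in replicate order, bars for group means, and a dashed line between the Wistar (left) and Sprague Dawley (right) tables. Replicate 1 of the d63 controls is the highest point of its group and replicate 1 of the d211 controls the lowest of its group in all 9 panels.

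Below these 2 genes the order of levels changed between ages. At d23 Marco came next, at 55.0 ± 19.3 FPKM in controls and 70.8 ± 26.9 in early weaned livers (SD, n = 3), and then Cd5l, at 47.8 ± 9.02 and 52.9 ± 5.26, with ranges that overlapped. In the 5 other groups Cd5l came next after C1qa and Clec4f, at 30.9 to 86.3 FPKM by group mean. Vsig4 and Cd68 were neighbours in every group and never differed beyond their spread, for example at 24.8 ± 4.95 and 22.1 ± 5.34 FPKM in d23 controls. Csf1r, Cd163 and Adgre1 were the lowest 3, in that order, in all 7 groups. Cd163 and Csf1r lay close at d23, at 17.2 ± 0.893 and 17.6 ± 0.635 FPKM in early weaned livers, and apart at d63, at 6.47 ± 0.55 and 10.8 ± 2.26.

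Libraries that stood apart did so for all markers at once. Their deviations are given as log2(FPKM + 0.1) minus the mean of the group. Replicate 1 of the d63 controls was the highest of its group for all 9 members, with a mean deviation of 0.65, and the members' summed FPKM was 624 there against 335 and 304 in the other libraries of that group. Replicate 1 of the d211 controls was the lowest of its group for all 9, with a mean deviation of -0.93 and a summed FPKM of 94.7 against 263 and 227. Replicate 1 of the d63 early weaned group was the lowest of its group for all 9 members, at -0.34. At d211 replicate 1 of the early weaned group was the highest for 8 members and replicate 2 the lowest for 8, at 0.56 and -0.59. For weaning and for leucine, the members' medians are given with and without these libraries. Medians of other gene lists are given with all libraries only.

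**Figure D2:**
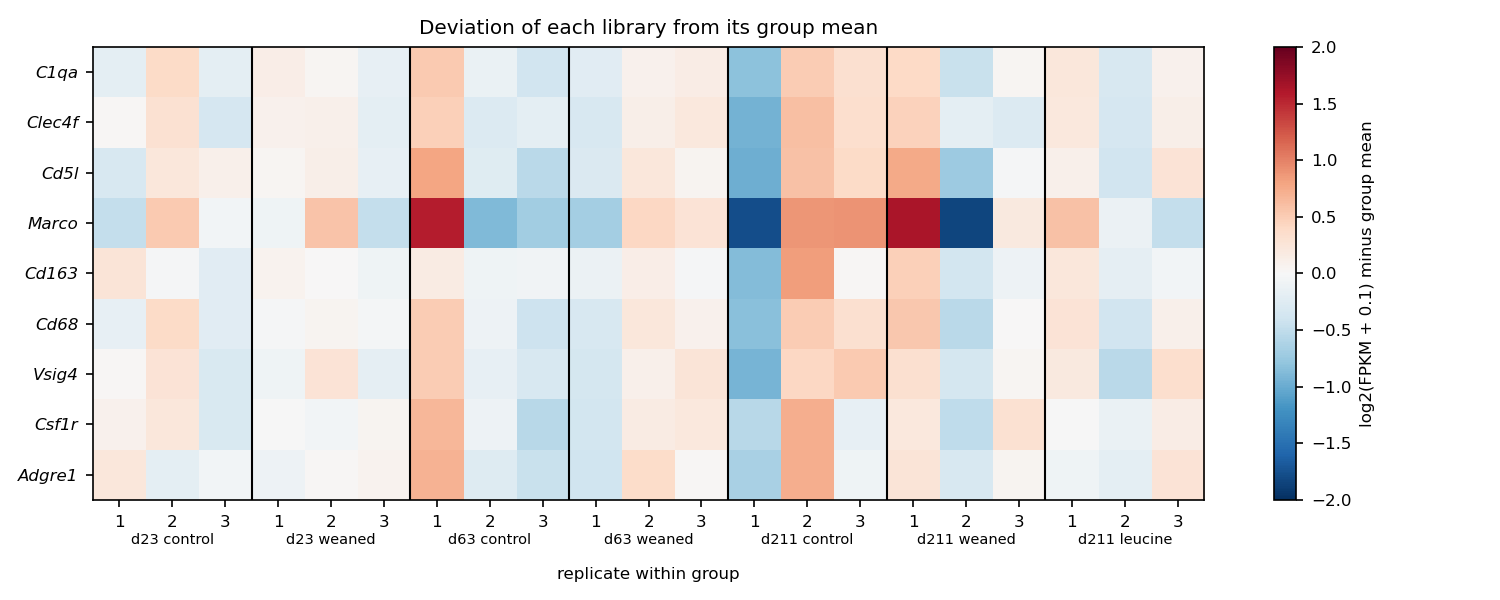
Deviation of each library from its group mean, in log2(FPKM + 0.1), for 9 markers (vertical) and 21 libraries in 7 groups (horizontal), red for higher and blue for lower. In 10 of the 21 columns all 9 markers have the same sign, and the deepest colours are in the Marco line, from -1.83 to 1.64.

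After group means were taken off, all 36 pairs of members were positively correlated over the 21 libraries, with Pearson's r from 0.69 to 0.98 and a median of 0.81. Libraries share depth and composition, so these values describe the libraries and carry no test. In the 5 groups other than the d63 and d211 controls (n = 15) the 36 values ran from 0.39 to 0.96 with a median of 0.71. Cd68 and C1qa were the closest pair, at 0.98. Marco went with the rest (median r 0.81) over a wider scale, with an SD within groups of 1.10 on the log2 scale against 0.39 to 0.54 for the 8 others.

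Of 11022 other genes at a mean of at least 1 FPKM, the 5 most like the mean of the members by this measure were C1qc (r = 0.95, Spearman's rho 0.94), Ccl6 (0.95 and 0.95), Capg (0.94 and 0.92), Cybb (0.93 and 0.85) and C1qb (0.93 and 0.91). C1qb and C1qc encode the partner chains of C1qa, Ccl6 a chemokine, Capg an actin-capping protein and Cybb the heavy chain of the phagocyte oxidase. The median r over the 11022 genes was -0.02, and 0.426% of them had an r above 0.8. Among the genes of the lists used for context, Ctss, a lysosomal cysteine protease, reached 0.92, Lgals3 0.88, Aif1 0.85, Csf2ra 0.84, Spi1 0.83, Plac8 0.82 and both Tyrobp and Laptm5 0.80. Other factors tied to Kupffer or macrophage identity did not go with the members to that degree, with Irf8 at 0.47, Nr1h3 at 0.04 and Maf at 0.03.

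Other liver cell types were followed by lists of their markers. The mean of 8 hepatocyte markers had an r of 0.01 with the members' mean, that of 8 stellate cell markers -0.08 and that of 7 sinusoidal endothelial markers 0.66. Within the endothelial list Lyve1 stood at 0.76 and Fcgr2b at 0.71, but Stab1 at -0.36. The mean of 6 shared leukocyte genes had an r of 0.61, with its genes from -0.01 (Ptprc) to 0.85 (Aif1). Only genes at a mean of at least 1 FPKM were used, which left 2 of 6 monocyte, 2 of 5 neutrophil and 3 of 4 erythroid genes. The mean of the 2 usable monocyte genes, Lyz2 (0.35) and Plac8 (0.82), had an r of 0.71. That of the 2 usable neutrophil genes, S100a8 and S100a9, had an r of 0.36. In replicate 1 of the d63 controls the endothelial list deviated by 0.11, the monocyte list by 0.84, the neutrophil list by 0.80, the shared leukocyte list by 0.71, the 2 usable T, NK and B cell markers by 0.66 and the hepatocyte list by -0.03. In replicate 1 of the d211 controls the neutrophil list deviated by -1.70, the endothelial list by -0.77, the monocyte list by -0.70, the erythroid list by -0.58, the shared leukocyte list by -0.11 and the hepatocyte list by -0.05. Of 5 neutrophil markers (S100a8, S100a9, Mpo, Csf3r and Camp), Mpo had a count of 0 in every library. The part of these lists in the markers' values was not tested.

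At d23, 0 of 9 markers differed between early weaned and control livers by the test, where 0.0130% of 15416 genes did (edgeR, adjusted p below 0.05). At an unadjusted p below 0.05 there were also 0 members, beside 956 genes (6.2%), and DESeq2 and limma called 0 as well. Cd68 was 19.4, 28.3 and 18.7 FPKM in the controls and 22.1, 23.4 and 21.8 in early weaned livers, an edgeR log2 change of -0.00 (95% interval -0.56 to 0.55). Cd163 was 18.2, 14.9 and 13.1 against 18.1, 17.3 and 16.3 FPKM, a change of 0.13 (-0.22 to 0.48). Groups overlapped for every member. Marco had the widest interval, from 38.2, 76.1 and 50.8 to 63.5, 101 and 48.3 FPKM and a log2 change of 0.35 (-0.99 to 1.70). This interval takes in a rise of 2-fold and a fall of nearly 2-fold. The members' log2 changes ran from -0.27 to 0.35 with 5 higher and 4 lower and a median of 0.02, beside -0.03 for all genes tested.

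At d63 all 9 markers were lower in early weaned livers with log2 changes from -0.14 for Clec4f to -0.84 for Marco and a median of -0.50 beside -0.01 for all genes tested, but 0 of 9 passed the test, as did 0% of 15416 genes. At an unadjusted p below 0.05 there were 2 members, Cd5l and Cd163, among 933 genes (6.05%), and DESeq2 and limma called 0 members. Cd5l was 138, 66.7 and 54.6 FPKM in controls and 38.9, 55.5 and 49.6 in early weaned livers, a log2 change of -0.76 (SE 0.316, adjusted p = 0.793 with edgeR). The groups of Cd5l overlapped by a narrow margin. Cd163 was 9.83, 8.32 and 8.38 FPKM against 5.99, 7.07 and 6.35, a change of -0.36 (SE 0.157, adjusted p = 0.793 with edgeR). Its groups did not overlap, and it was the only member so; the same was true, in the lower direction, of 13.7% of genes. Csf1r was 24.9, 14.8 and 10.7 against 8.16, 11.9 and 12.2 FPKM (-0.56, 95% interval -1.20 to 0.08). Adgre1 was 10.5, 5.34 and 4.70 against 3.20, 5.51 and 4.35 FPKM (-0.57, -1.24 to 0.11). Both overlapped, and their highest control was replicate 1.

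That library carried much of the pattern. Without replicate 1 of the d63 controls the median of the members was -0.10, Marco stood at 0.43, Clec4f at 0.14, Vsig4 at 0.09 and C1qa at 0.02. Cd5l stood at -0.24, Csf1r at -0.14 and Adgre1 at -0.10 without it, and Cd163 at -0.27, with a range over all alternatives of -0.45 to -0.27. The median was -0.34 without replicate 1 of the early weaned group. Lists of other cells were lower beside the markers at d63. Of 7 sinusoidal endothelial genes 0 were higher (median -0.62, summed level 57.5 to 94.1 FPKM in controls and 40.5 to 62.9 in early weaned livers). Of 9 tested T, NK and B cell genes 0 were higher (median -1.17, summed level 4.61 to 10.8 against 4.32 to 6.14 FPKM), and of 6 shared leukocyte genes 0 were higher (median -0.61). These list medians include replicate 1 of the d63 controls and are not given without it. None of these genes passed the test, and their part in the markers' values was not tested.

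The effect of early weaning was also compared between the ages, by the interaction of age and weaning. This was negative for 8 of 9 members with a median of -0.49, and 0 of 9 passed the test, as did 0.00649% of genes. Marco had the largest value, -1.19 (95% interval -3.10 to 0.71), and Cd163, at -0.49 (SE 0.222), the only unadjusted p below 0.05, which became 1 after adjustment over all genes in edgeR. Of all genes tested, 4.72% had an unadjusted p below 0.05 for the interaction. Without replicate 1 of the d63 controls the members' median was 0.04. DESeq2 and limma called 0 members. A weaning effect on these markers that differs between d23 and d63 was therefore not detectable.

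**Figure D3:**
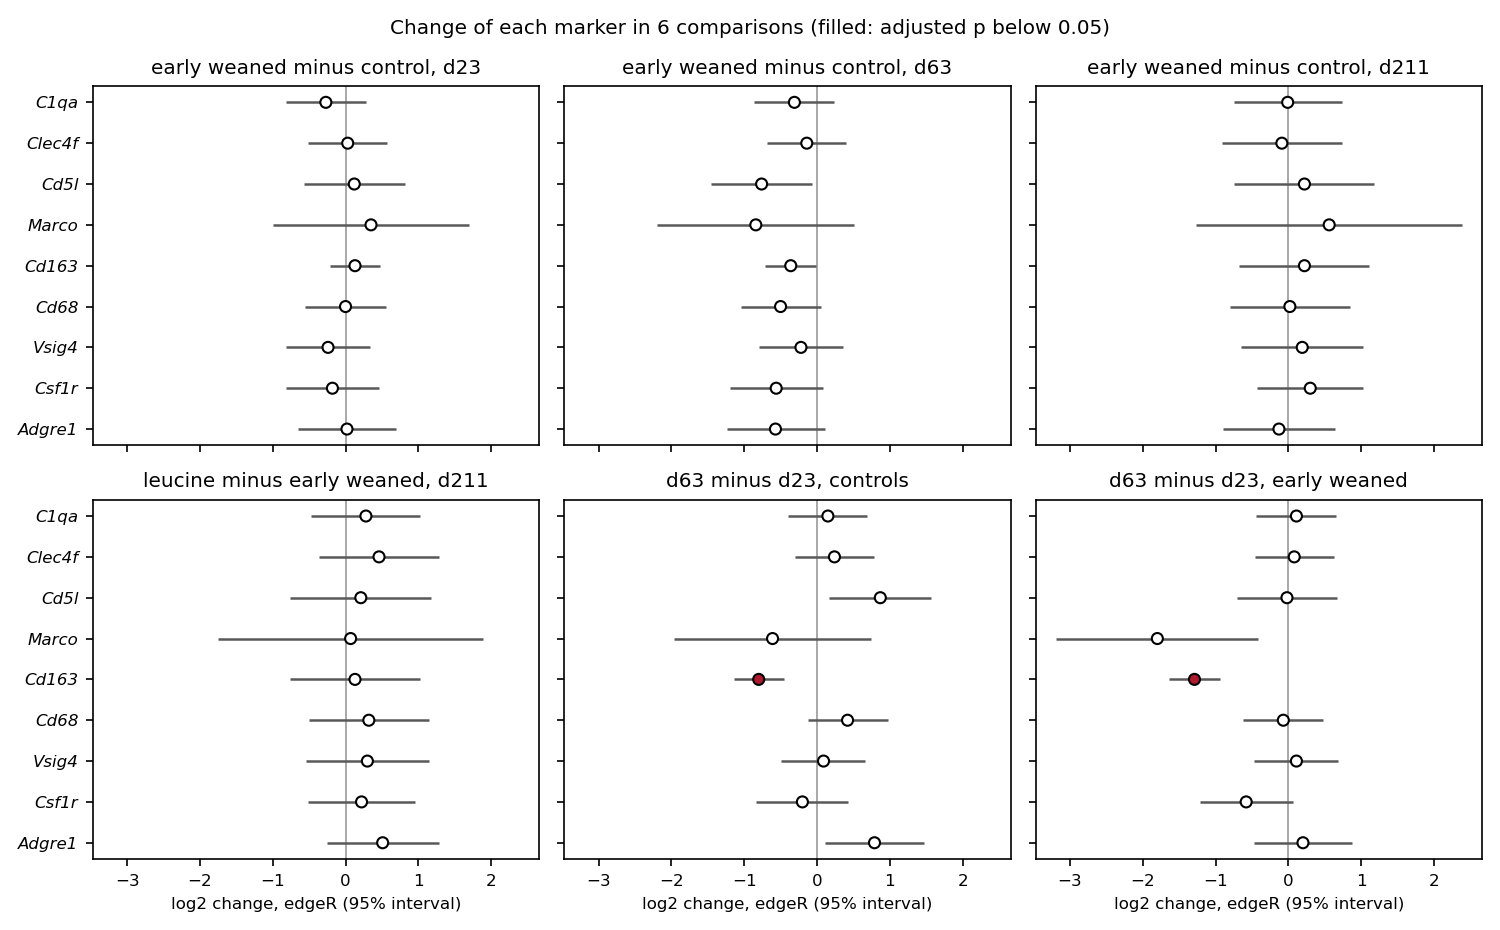
Log2 change of each marker from edgeR with its 95% interval in 6 comparisons, filled where adjusted p was below 0.05. The only filled points are those of Cd163 between ages, at -0.80 and -1.29; at d63 all 9 open points lie below 0, a pattern that shrinks to a median of -0.10 without replicate 1 of the d63 controls, and the points above 0 for leucine include 2, Marco and Cd163, that fall below 0 when counts are scaled by library totals alone.

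Between d23 and d63, Cd163 was the one marker that passed the test, and it fell in both arms. Cd163 fell from 18.2, 14.9 and 13.1 FPKM in d23 controls to 9.83, 8.32 and 8.38 in d63 controls, a mean of 15.4 ± 2.61 against 8.84 ± 0.855 (SD, n = 3). The groups did not overlap, and the log2 change was -0.80 (SE 0.158, 95% interval -1.14 to -0.45, adjusted p = 0.0114 with edgeR). In early weaned rats Cd163 fell from 18.1, 17.3 and 16.3 to 5.99, 7.07 and 6.35 FPKM, a change of -1.29 (SE 0.16, -1.64 to -0.94, adjusted p = 0.00112). These arms share no library, and all 6 libraries at d63 were below all 6 at d23. In controls 1 of 9 members was called, against 17.6% of all genes, and in early weaned rats 1 of 9, against 27.0%, so the share of markers called was not above that of genes in general. Cd163 was called in 21 of 22 alternatives in controls, at -0.90 to -0.64, and in 22 of 22 in early weaned rats, at -1.41 to -1.22. The call in controls was lost when only those 2 groups were fitted (-0.80, adjusted p = 0.0839), where 281 genes were called in place of 2710.

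No other member was called in the main edgeR fit. Clec4f was 90.1, 109 and 70.3 FPKM in d23 controls and 142, 84.7 and 90.0 in d63 controls, a change of 0.24 (95% interval -0.30 to 0.79), and 0.08 (-0.46 to 0.62) in early weaned rats. Vsig4 changed by 0.09 (-0.49 to 0.66) and 0.11 (-0.47 to 0.68), and C1qa by 0.15 (-0.40 to 0.69) and 0.11 (-0.44 to 0.66). For these 3 genes the intervals of both arms leave out a fall as large as the 0.80 of Cd163 on the log2 scale. Cd68 changed by 0.42 (-0.13 to 0.98) in controls and -0.07 (-0.63 to 0.48) in early weaned rats. Cd5l was higher in d63 controls, by 0.87 (SE 0.316, adjusted p = 0.0778), without passing in edgeR, and passed in DESeq2 (0.89, adjusted p = 0.0345); in early weaned rats it changed by -0.02 (-0.71 to 0.67). Without replicate 1 of the d63 controls the change of Cd5l in controls was 0.35 (adjusted p = 0.331 with edgeR). Adgre1 was 4.65, 3.46 and 3.82 FPKM in d23 controls and 10.5, 5.34 and 4.70 in d63 controls, which did not overlap, a change of 0.79 (SE 0.308, adjusted p = 0.0951 with edgeR), and of 0.33 (adjusted p = 0.402) without that library. Cd163 without it stood at -0.89 (adjusted p = 0.0288), and Cd68 at 0.11.

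Marco and Csf1r were lower at d63 in early weaned rats without passing the main test. Marco was 63.5, 101 and 48.3 FPKM at d23 and 11.1, 23.6 and 21.4 at d63, a mean of 70.8 ± 26.9 against 18.7 ± 6.68, with groups that did not overlap and a log2 change of -1.80 (SE 0.628, adjusted p = 0.0544 with edgeR). It passed in DESeq2 (-1.79, adjusted p = 0.011) and in limma on log2(FPKM + 0.1) (-1.92, adjusted p = 0.0294). In controls Marco was 38.2, 76.1 and 50.8 FPKM at d23 and 76.5, 13.8 and 15.9 at d63, a change of -0.61 (adjusted p = 0.509). The groups overlapped through replicate 1 of the d63 controls alone, and without that library the change was -1.88 (adjusted p = 0.04 with edgeR). Csf1r was 17.4, 17.0 and 18.3 FPKM at d23 and 8.16, 11.9 and 12.2 at d63 in early weaned rats, which did not overlap, a change of -0.58 (SE 0.29, adjusted p = 0.154), and passed only when those 2 groups alone were fitted (adjusted p = 0.0435). Members lower without overlap were 1 of 9 in controls (Cd163), against 15.7% of genes, and 3 of 9 in early weaned rats (Cd163, Marco and Csf1r), against 31.0%. With library totals in place of TMM scaling, the split of genes called in early weaned rats was 1621 higher and 2778 lower in place of 2085 and 2076, with an all-gene median of -0.14 in place of -0.02.

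The make-up of the marker signal shifted between ages for several members, among them Cd163 and Marco. As a ratio of FPKM to Clec4f in the same library, which takes off differences in the amount of macrophage RNA as far as Clec4f follows it, Cd163 stood at 0.137 to 0.202 in the 6 libraries of d23 and at 0.0618 to 0.0982 in the 6 of d63. The ratio was 0.051 to 0.0902 in the 9 libraries of d211. Marco stood at 0.424 to 1.01 of Clec4f at d23 and at 0.155 to 0.54 at d63, where replicate 1 of the controls was the highest. As shares of the members' summed FPKM, Cd163 went from 4.21% ± 1.11 and 4.56% ± 0.473 at d23 (controls and early weaned, SD, n = 3) to 2.27% ± 0.617 and 2.19% ± 0.297 at d63, and Marco from 14.4% ± 2.70 and 18.2% ± 4.65 to 7.21% ± 4.41 and 6.08% ± 1.31. Over the same groups Csf1r went from 5.24% ± 0.759 and 4.69% ± 0.811 to 3.97% ± 0.45 and 3.57% ± 0.142. Cd5l went up, from 12.9% ± 2.35 and 13.9% ± 0.499 to 20% ± 2.05 and 16% ± 0.976. These ratios and shares are descriptions with no test.

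**Figure D4:**
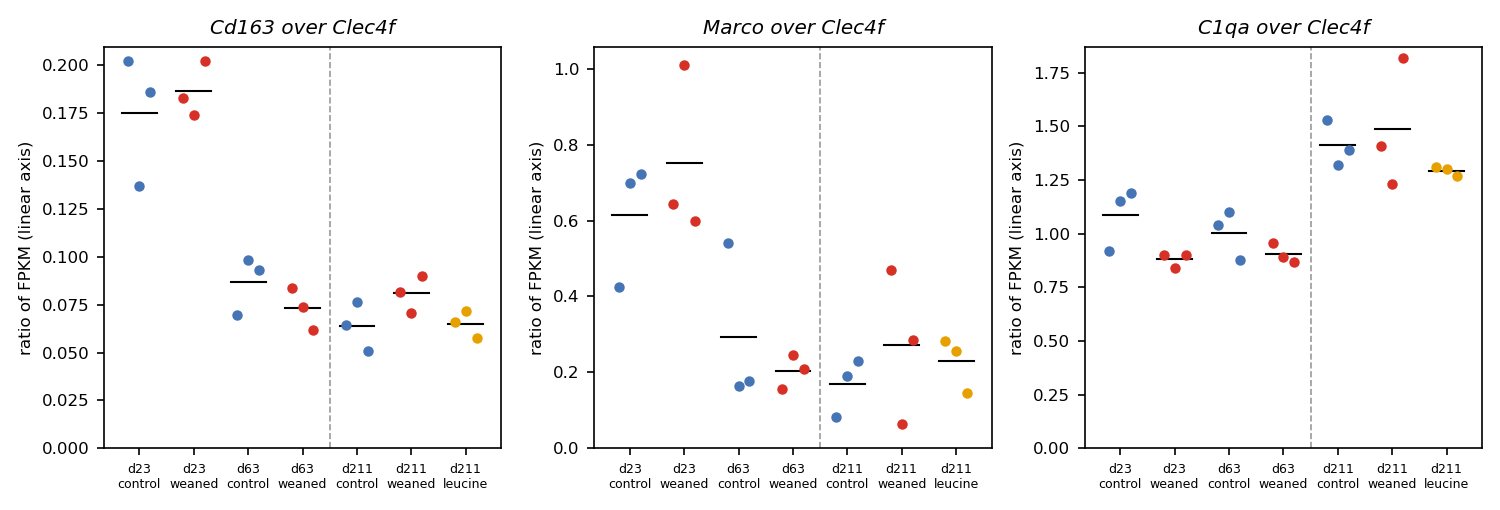
Ratio of the FPKM of Cd163, Marco and C1qa to that of Clec4f in the same library, on linear axes from 0, with bars for group means and a dashed line between the Wistar and Sprague Dawley tables. All 6 values of Cd163 at d23 (0.137 to 0.202) lie above all 6 at d63 (0.0618 to 0.0982), and C1qa is above 1.2 times Clec4f in all 9 Sprague Dawley libraries and in none of the Wistar libraries.

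In 18 lists of other cell types and macrophage functions, with 123 matched genes of which some were not tested, 34 calls were made between ages in controls and 45 in early weaned rats. Of all genes tested, 17.6% were called in controls and 27.0% in early weaned rats. The counts for single lists below stand beside those same shares. The calls in controls depended on single libraries, as did those over all genes. With each of the 6 control libraries left out in turn, 2 to 21 of the 34 were lost, and 646 to 6001 genes were called in place of 2710. Leaving out replicate 1 of the d63 controls gave 859 genes, and 16 of the 34 calls were lost (C3, Itgax, Csf1, Spi1, Irf8, Fcgr3a, Cd47, Ctsb, Hp, Lyz2, Ptprc, Coro1a, Cd3e, Nkg7, Stab1 and Krt19). In early weaned rats, whose fit shares its estimate of spread with that library, 6 of 45 calls were lost (Csf1, Lamp2, Ctsd, Il1b, Cd79b and Cldn4). Of 7 genes listed as C1q and complement receptor partners, 4 rose in each arm (C1r, C1s, C3 and Itgax), and 0 fell. Itgax was barely expressed, at means of 0.0833 and 0.36 FPKM in d23 and d63 controls, which overlapped. In early weaned rats it stood at 0.02 and 0.237 FPKM. Without replicate 1 of the d63 controls 2 rose in controls (C1r and C1s) and 4 in early weaned rats. C1r, a protease of the C1 complex, rose by 1.91 on the log2 scale in controls (adjusted p = 0.00138) and 1.66 in early weaned rats (adjusted p = 0.00186). C1s, the next protease of that complex, rose by 2.16 and 1.40. The partner chains were not called. C1qb changed by -0.17 (95% interval -0.70 to 0.36) in controls and -0.63 (adjusted p = 0.0732) in early weaned rats, and C1qc by -0.21 (-0.79 to 0.37) and -0.65 (adjusted p = 0.0892). The whole list of C1q and complement receptor partners had medians of 1.72 and 1.40 beside -0.04 and -0.02 for all genes. Its C1q chains, C1qb and C1qc, lay below 0 in both arms.

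Among 5 genes of the CSF1 receptor's ligands and signal, Csf1, its main ligand, rose by 0.91 in controls (adjusted p = 0.038) and by 0.85 in early weaned rats (adjusted p = 0.0367). In early weaned rats the second ligand Il34 also rose, by 1.46. Csf2rb, also in this list, fell by 1.71, and it encodes a beta chain shared by cytokine receptors other than the CSF1 receptor. Among 10 identity factors, Spi1 rose by 0.96 and 0.79 and Irf8, a factor of monocyte development, by 1.13 and 1.10. Nr1h3, which encodes LXR alpha, rose by 1.56 in early weaned rats. Nr1h3 did not go with the markers from library to library (r = 0.04), against 0.83 for Spi1 and 0.47 for Irf8. The cells behind its rise were not tested. Of 7 other scavenger and lectin receptors, Mrc1, the mannose receptor, fell in both arms, by 0.70 and 1.15, and Fcgr3a, a receptor for antibody, rose by 2.81 and 2.19. Cd14, a co-receptor for endotoxin, fell by 1.94 and Fcgr1a rose by 1.00, both in early weaned rats. Without replicate 1 of the d63 controls Mrc1 was called in both arms, and Fcgr3a, Spi1 and Irf8 in early weaned rats alone. Csf1 was then called in neither arm.

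Of 7 phagocytosis genes, 3 rose in controls (Gas6, Timd2 and Cd47) and 3 in early weaned rats (Gas6, Timd2 and Pros1), and 0 fell. Gas6, a bridge between dying cells and their receptors, rose by 1.96 and 1.56. These called genes did not go with the markers from library to library (r = -0.26 for Gas6, -0.06 for Timd2, 0.02 for Cd47 and 0.12 for Pros1). The cells behind their rise were not tested. Among 7 lysosomal genes, Ctsb rose in both arms, Lamp2 rose and Ctsd fell in early weaned rats. Among 6 genes of iron and heme recycling, Hmox1, the heme oxygenase that acts on heme taken up through Cd163, fell by 1.21 (adjusted p = 0.0146) and 1.22 (adjusted p = 0.00924), and Hp, the haptoglobin that Cd163 binds as a complex, fell by 0.80 and 0.65. Ftl1 rose by 1.04 in controls. Hepatocytes also express Hp, Ftl1 and most complement genes of these lists.

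**Figure D5:**
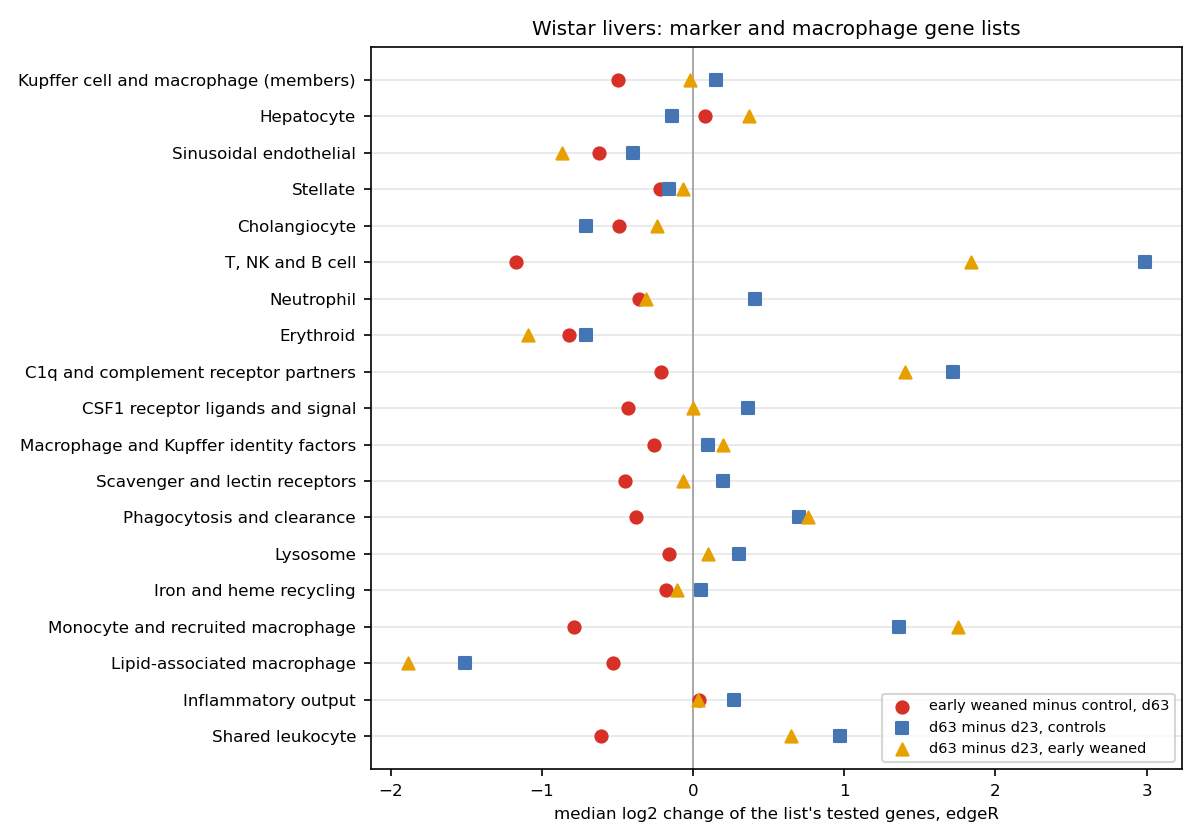
Median log2 change of the tested genes of 19 marker and macrophage lists in Wistar livers, for early weaned minus control at d63 (circles) and for d63 minus d23 in controls (squares) and early weaned rats (triangles). The 9 markers lie near 0 between ages, at 0.15 and -0.02, and the value in controls was -0.18 without replicate 1 of the d63 controls. With all libraries the T, NK and B cell list lies at 2.99 and 1.84 and the lipid-associated macrophage list at -1.51 and -1.89.

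Of 7 genes used for lipid-associated macrophages, 3 fell in each arm: Lpl by 1.83 and 3.08, Cd9 by 2.04 and 2.67 and Fabp5 by 2.01 and 2.65. Other liver cells express these 3 genes as well, and Cd9 and Lpl did not go with the markers from library to library (r = -0.61 and -0.60). Of 6 genes of monocytes and recruited macrophages only Lyz2 passed, with a rise of 1.78 in controls. Of 8 inflammatory genes, Arg1, which hepatocytes express strongly for the urea cycle, fell in both arms, and Il1b rose by 0.97 in early weaned rats. Of 6 leukocyte genes, Cd74, the invariant chain, rose by 3.10 and 2.50 and Coro1a by 1.76 and 1.80, and Ptprc rose by 1.09 in controls.

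Markers of other cells changed beside Cd163. Of 9 tested T, NK and B cell genes, Cd3e, Cd8a and Nkg7 rose in controls and Cd8a and Cd79b among others in early weaned rats. Their summed level went from 0.77 to 1.87 FPKM in d23 controls to 4.61 to 10.8 in d63 controls. Of 7 sinusoidal endothelial genes, Lyve1 and Stab1 fell in controls and Lyve1, Stab1, Stab2 and Oit3 in early weaned rats, with summed levels of 103 to 112 FPKM in d23 controls and 57.5 to 94.1 in d63 controls. Among stellate cell genes Col1a1 and Dcn fell in both arms and Rgs5 rose in early weaned rats, and among cholangiocyte genes Krt19 fell in controls and Cldn4 in early weaned rats. Among hepatocyte genes Cps1 fell and Hnf4a rose in both arms, and Alb, Ttr and Tf rose in early weaned rats. Of erythroid genes (Alas2, Hbb, Klf1 and Ahsp) and neutrophil genes 0 passed the edgeR test. The part of these changes in the fall of Cd163 was not tested.

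At d211, in Sprague Dawley rats, 0 of 9 markers were called between early weaned and control livers, where 0.719% of 15019 genes did. At an unadjusted p below 0.05 there were 0 members among 2591 genes (17.3%), and DESeq2 and limma called 0 members. C1qa was 35.4, 88.4 and 78.2 FPKM in controls and 102, 56.8 and 79.1 in early weaned livers, a log2 change of -0.01 (95% interval -0.75 to 0.74). Csf1r was 3.46, 8.53 and 4.60 against 9.10, 5.50 and 9.69 FPKM (0.30, -0.43 to 1.03), and Cd163 1.48, 5.11 and 2.86 against 5.91, 3.25 and 3.93 (0.22, -0.68 to 1.11). All groups overlapped. The members' changes had a median of 0.19 beside 0.02 for all genes, with 6 higher and 3 lower; the lower ones, Clec4f, Adgre1 and C1qa, were higher with library totals in place of TMM scaling (0.15, 0.11 and 0.24). That scaling moved the all-gene median from 0.02 to 0.24 and the split of called genes from 63 higher and 45 lower to 332 and 55. Without replicate 1 of the controls the members' median was -0.16, and without replicate 1 of the early weaned group -0.20, and without replicate 2 of that group 0.32.

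With leucine, 0 of 9 markers passed the test against early weaned livers without it, where 0.360% of genes did, and 0 of 9 against controls, where 0.0133% did. There were 0 members at an unadjusted p below 0.05 in either, beside 13.1% of genes against early weaned livers and 10.8% against controls. DESeq2 and limma called 0. Clec4f was 75.4, 51.8 and 70.7 FPKM with leucine, against 72.3, 46.0 and 43.5 in early weaned livers and 23.1, 67.0 and 56.2 in controls, a change of 0.46 (95% interval -0.37 to 1.28) and of 0.36 (-0.46 to 1.19). Adgre1 had the smallest p against early weaned livers, at 3.43, 3.19 and 4.45 against 3.44, 2.27 and 2.99 FPKM (0.51, -0.26 to 1.29, adjusted p = 0.61 with edgeR). All 9 changes were above 0 in both comparisons, with medians of 0.28 and 0.38 beside -0.00 and 0.01 for all genes, except that with library totals Marco and Cd163 stood at -0.13 and -0.04 against early weaned livers. Library totals changed the split of called genes there from 27 higher and 27 lower to 26 and 75 and the all-gene median to -0.16. The 3 comparisons at d211 share libraries, so their directions are not independent. Against early weaned livers the median was 0.60 without replicate 1 of the early weaned group and 0.11 without replicate 2, where Marco stood at -0.43, Cd5l at -0.06 and Cd163 at -0.01. Against controls the median was 0.07 without replicate 1 of the controls, and 0.07 to 0.75 over all libraries left out in turn. All 7 sinusoidal endothelial genes were also above 0 against early weaned livers (median 0.36, summed level 64.9 to 78.1 FPKM with leucine and 48.3 to 76.3 without), none of them past the test, and their part in the markers' values was not tested.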

How the data were processed

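RNA-seq was measured in 21 rat liver libraries, with a template-switching mRNA kit per the labels' protocols. The authors deposited a Wistar and a Sprague Dawley table. Per the file headers, each holds FPKM and, beside it, an estimated count for every gene in each library. The aligner was not given in the sources used here, nor the counter. Mouse builds are named in the submitters' processing notes, whereas the tables hold rat Ensembl identifiers, so their coordinates are of an unnamed rat build. The deposited counts are whole, not normalized, sum to 52054644 to 75118153 per library and pile up at multiples of 4. Overlapping and antisense genes could not be separated. The precision was set by the spread between libraries.

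Members and gene lists were chosen with earlier results of these data known. Each table was fitted alone with edgeR 4.0.16 in R 4.3.3: TMM scaling, filterByExpr at a minimum count of 10, a mean per group and the two-sided quasi-likelihood test, Benjamini-Hochberg adjusted over all genes, with a call at an adjusted p below 0.05. All 9 members passed the filter in both tables. FPKM values were used for levels, with 0.1 added before a log. Named are all members, every listed gene called in any comparison (otherwise the first 3 of a list), and the 5 genes most like the members. Some listed genes are not reported here. Of 129 symbols in 18 other lists, 123 matched. Alternatives were other size factors, library totals, no filter, DESeq2 1.42.0, limma 3.58.1 on log2(FPKM + 0.1 or + 1), counts divided by 4, only the groups compared, a replicate block and each library left out. The fits were tested on simulated data. Samples with the same replicate number did not deviate together, so numbers were not taken as pairs. No library was left out, and none was a copy of another, with at most 2.11% of counts identical.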

Additional observations from a re-analysis of the deposited data

How the results depend on the processing

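The following covers the 8 comparisons under all alternatives run; a direction that turned belongs to a change whose interval included 0, and the cause was not tested. Of counts and medians, 190 settings that kept all libraries stayed close to the main value and 47 moved; of single markers 659 kept direction and call, 42 turned direction, 9 gained a call and 1 lost it. In every weaning, leucine and interaction comparison 0 markers were called under each setting. DESeq2 called more genes: 115 for weaning at d23, 87 at d63 and 1110 at d211, 776 for leucine against early weaned livers and 197 against controls, 4108 between ages in controls and 45 for the interaction, with 2 markers between ages in each arm (Cd5l 0.89 in controls, Marco -1.79 in early weaned rats).

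Weaning at d23: genes called were 5 without a count filter, 4, 8 and 6 with limma (FPKM + 0.1, + 1, and + 0.1 unfiltered), and 1 with a replicate block or only the groups compared. Cd68 was 0.02 with library totals or only the groups compared, 0.00 with DESeq2, 0.04 with limma and 0.01 with a replicate block. Weaning at d63: 2 genes with limma (FPKM + 0.1, filtered or not) or only the groups compared. Weaning at d211: 387 genes with library totals, 218, 268 and 7 with limma, 188 with counts divided by 4, 49 with a replicate block and 31 with only the groups compared. There Clec4f was 0.15 with library totals and 0.25, 0.24 and 0.25 with limma, Adgre1 0.11 and then 0.20, 0.13 and 0.20, and C1qa 0.24 and then 0.30 in all limma fits, while a replicate block gave C1qa 0.00 and Cd68 -0.00.

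Leucine against early weaned livers: 101 genes with library totals, 113 without a filter, 144 with limma (FPKM + 1), 154 with counts divided by 4 and 32 with only the groups compared; Marco was -0.13 with library totals, and Cd163 -0.04 and, with limma, -0.01. Leucine against controls: 5 genes without a filter or with a replicate block, and 4 with limma (FPKM + 1) or only the groups compared. Ages in controls: with only the groups compared, 281 genes and 0 markers. Ages in early weaned rats: 2 markers with library totals, limma or counts divided by 4 (Marco -1.92, -1.92 or -1.87, and -1.80) and 3 with only the groups compared (Marco -1.79, Csf1r -0.57); Clec4f was -0.04 with library totals and -0.06 with limma, Vsig4 and C1qa -0.01 and -0.02. Interaction: 0 genes with library totals or a replicate block, 2, 2 and 3 with limma; Vsig4 was -0.09 with library totals and -0.07 with limma. The replicate block changed no marker's call.

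With each library left out in turn, genes called ran from 1 to 6 (weaning d23), 0 to 3 (d63), 2 to 534 (d211), 1 to 539 (leucine against early weaned), 2 to 6 (leucine against controls), 646 to 6001 (ages, controls), 1923 to 5908 (ages, early weaned) and 0 to 4 (interaction), and markers called from 1 to 2 between ages in each arm. Marker medians ran from -0.69 to -0.10 (d63), -0.20 to 0.38 (d211), 0.11 to 0.60 (leucine against early weaned), 0.07 to 0.75 (leucine against controls), -0.18 to 0.35 (ages, controls) and -0.63 to 0.04 (interaction). Markers that turned direction ran as follows. Weaning d23: Cd68 -0.11 to 0.19, Marco -0.02 to 0.63, Clec4f -0.12 to 0.17, Adgre1 -0.08 to 0.17, Cd5l -0.01 to 0.22. Weaning d63: Marco -1.23 to 0.43, Clec4f -0.28 to 0.14, Vsig4 -0.38 to 0.09, C1qa -0.49 to 0.02. Weaning d211: Cd68 -0.30 to 0.31, Marco -0.51 to 1.06, Clec4f -0.44 to 0.25, Vsig4 -0.16 to 0.42, Cd163 -0.13 to 0.80, Adgre1 -0.43 to 0.38, Cd5l -0.20 to 0.54, C1qa -0.33 to 0.28. Leucine against early weaned: Marco -0.43 to 1.13, Cd163 -0.01 to 0.37, Cd5l -0.06 to 0.63. Leucine against controls: Cd163 -0.00 to 0.93, C1qa -0.05 to 0.55. Ages, controls: Clec4f -0.04 to 0.38, Vsig4 -0.22 to 0.27, Csf1r -0.62 to 0.06, C1qa -0.18 to 0.35. Ages, early weaned: Cd68 -0.19 to 0.08, Clec4f -0.04 to 0.23, Vsig4 -0.03 to 0.28, Adgre1 -0.01 to 0.39, Cd5l -0.14 to 0.13. Interaction: Marco -1.58 to 0.08, Clec4f -0.31 to 0.12, Vsig4 -0.14 to 0.33, Csf1r -0.63 to 0.04, C1qa -0.23 to 0.29.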

Other observations

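The 3 chains of complement C1q did not keep the same proportions in all groups. C1qa, C1qb and C1qc stood at means of 97.1, 93.4 and 93.7 FPKM in d23 controls. In d63 early weaned livers they stood at 80.9, 57.6 and 55.5 FPKM, and in d211 controls at 67.3, 40.2 and 49.9. Between d23 and d63 in early weaned rats the log2 change was 0.11 (95% interval -0.44 to 0.66) for C1qa, -0.63 (-1.17 to -0.10) for C1qb and -0.65 (-1.23 to -0.07) for C1qc. None of these changes passed the edgeR test after adjustment (adjusted p = 0.769, 0.0732 and 0.0892), and the difference between chains was not tested. C1qa also stood at 0.84 to 1.19 times Clec4f in the 12 Wistar libraries and at 1.23 to 1.82 times in the 9 Sprague Dawley libraries. Strain, the d211 age and table cannot be told apart in this difference, and it was not tested.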
